A study of Mus musculus with 8 samples.

Results

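The antiviral effector genes Rsad2, Cmpk2, Mx1, Mx2, Isg20, Eif2ak2, Rtp4 and Samhd1 were followed in single endothelial cells (ECs) of mouse breast tumours, 3 h after the tumours had been injected with the STING agonist cGAMP or with PBS. The 8 genes were taken by name from the 8 expression tables, which list 20408 genes between them. A row was found for 7 of the 8 in every library. Mx2 had no row in any of them and is not analysed here. ECs were defined as cells with at least 1 Pecam1 UMI (a UMI is a barcode that counts 1 captured RNA molecule), which gave 7159 of 8204 cells.

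Cells came from FACS sorts of live CD45-/CD31+ cells out of mammary tumours of 2 kinds, each given 1 of 2 treatments, with 2 libraries in each of the 4 groups. Spontaneous tumours arose in MMTV-PyMT females, in which the MMTV promoter drives the PyMT oncogene in mammary epithelium, and were treated from 9 weeks of age. Implanted tumours grew from cells of such tumours that had been kept 2 days in culture and were placed with Matrigel in the mammary fat pad of FVB females of 8 to 9 weeks, so that the stroma and vessels there came from a host without the transgene. Each tumour received 70 µl of PBS, alone or with 14 µg of 3'3'cGAMP. The labels instead give the strain as c57bl/6, and which of them applies could not be settled. The 2 libraries of a group were made from ECs of 2 mice, so that p-values measure the spread between these pairs of libraries.

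ECs numbered 601 to 1529 per library, with 7451522 to 16338968 UMIs in them. Median UMIs per EC were 3049 in implanted cGAMP replicate 1 and 9523 to 14707.5 in the other 7 libraries. Of the 28 pairs of libraries, 23 shared no cell barcode and none shared more than 3. The endothelial markers Cdh5 and Egfl7 were found in 83.2 to 97.3% and 90.9 to 98.5% of ECs. Markers of other cells were found as well: the casein gene Csn3 gave a UMI in 27.6 to 91.6% of ECs, and 43.7 to 87.5% of ECs carried at least 2 markers of mural, epithelial, immune or fibroblast cells.

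In the pathway that these tumours were challenged with, cGAMP binds STING, TBK1 is recruited, and IRF3 switches on interferon β. Secreted type I interferon then acts through its receptor on the same and on neighbouring cells, where a complex with STAT2 and IRF9 binds interferon-stimulated response elements (ISREs) in promoters. The effector genes lie at the end of that chain. Rsad2 encodes viperin, a radical SAM enzyme that turns CTP into a chain-terminating nucleotide, and Cmpk2 encodes a mitochondrial nucleoside monophosphate kinase. Mx1 encodes a dynamin-like GTPase that blocks influenza-type viruses in the nucleus, and many laboratory strains of mice carry alleles without a functional protein. Isg20 encodes an exonuclease that degrades RNA. Eif2ak2 encodes PKR, which is activated by double-stranded RNA and shuts down translation, Samhd1 encodes an enzyme that hydrolyses deoxynucleotides, and Rtp4 encodes a receptor-transporting protein that restricts flaviviruses.

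The genes lie on 5 chromosomes of the mouse genome (GRCm38, GENCODE annotation). Rsad2 (chr12:26442746-26456452, minus strand) and Cmpk2 (chr12:26469204-26479837, plus strand) are each other's neighbours and point away from each other, with 12752 bases between their starts. Mx1 (chr16:97447035-97462907, minus strand) and Mx2 (chr16:97535308-97560900, plus strand, annotated as a polymorphic pseudogene) are also divergent, with 72401 bases between their starts and Fam3b between them. Rtp4 lies far from both on the same chromosome (chr16:23520291-23614222, plus strand), Isg20 at chr7:78913424-78920396 (plus strand), Eif2ak2 at chr17:78852564-78882573 (minus strand) and Samhd1 at chr2:157097533-157135265 (minus strand). The long annotated span of Rtp4 overlaps the transcript Gm45338 on the same strand over 39791 bases, and how UMIs from there were counted was not examined.

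RefSeq promoter sequences (GRCm38.p6, windows of 300 bases around a start, most of them before it) were on hand for 5 of the 8 genes, namely Rsad2, Cmpk2, Isg20, Eif2ak2 and Samhd1, and not for Mx1, Mx2 and Rtp4. They were searched on both strands for an ISRE core, GAAA and GAAA again after any 2 bases, and for the interferon-activated motif GAS, TTCNNNGAA. Of all 32851 promoters of this length, 3.44% held the ISRE core and 8.30% held GAS. The last 150 bases before the start are shown for Rsad2 and its divergent neighbour Cmpk2, which share a region, and for Isg20, which rose in both tumour models, with motif letters in capitals. The Rsad2 stretch (chr12:26456453-26456602, minus strand) held an ISRE core on its reverse strand, beginning 120 bases before the start. In Isg20, for the first of its 3 listed starts (chr7:78913274-78913423, plus strand), a GAS began 73 bases before the start. The Cmpk2 stretch (chr12:26469065-26469214, plus strand) and the rest of its window held neither set of letters.
Rsad2: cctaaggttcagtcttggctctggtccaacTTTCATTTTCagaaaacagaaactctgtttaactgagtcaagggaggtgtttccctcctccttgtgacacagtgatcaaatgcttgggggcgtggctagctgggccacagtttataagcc
Cmpk2: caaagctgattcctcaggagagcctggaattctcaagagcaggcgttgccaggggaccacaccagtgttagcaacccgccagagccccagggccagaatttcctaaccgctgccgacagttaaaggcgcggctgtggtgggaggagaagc
Isg20: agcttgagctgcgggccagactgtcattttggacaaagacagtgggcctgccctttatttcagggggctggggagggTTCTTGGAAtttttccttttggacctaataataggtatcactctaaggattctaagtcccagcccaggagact

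In Eif2ak2 the ISRE core lay after the start, from base 19 of the transcript. It is shown with its flanks, bases 11 to 40 of the transcript (chr17:78882533-78882562, minus strand), because here the motif lies in the transcribed part: tccgccggGAAAACGAAAcagaagagaacc. Eif2ak2 also held a GAS 178 bases before its start and Samhd1 a GAS 235 bases before its start. Distances are from the RefSeq starts. For Samhd1 the bases before that start began at chr2:157135097, so the start lay within the GENCODE span given above and not at its end. These matches describe the letters in the windows, and factor binding was not measured.

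cGAMP raised all 7 measured effectors in ECs of spontaneous tumours and all 7 in ECs of implanted tumours. Levels are the mean over ECs of a library in CPM (UMIs of a gene per 1000000 UMIs of the cell), and since only transcript ends were sequenced they are compared between samples and not between genes. The tests were limma fits over 10424 genes with all 8 libraries, in which an adjusted p under 0.05 was called. In spontaneous tumours 5.09% of the genes tested were called higher after cGAMP, and in implanted tumours 8.6%. The median log2 fold change of the 7 was 3.48 in spontaneous and 3.11 in implanted tumours, against -0.10 for all genes in both. For each of the 7 every cGAMP library lay above every PBS library of its model, as was the case for 18.8% of all genes in spontaneous and 21.6% in implanted tumours.

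**Figure D1:**
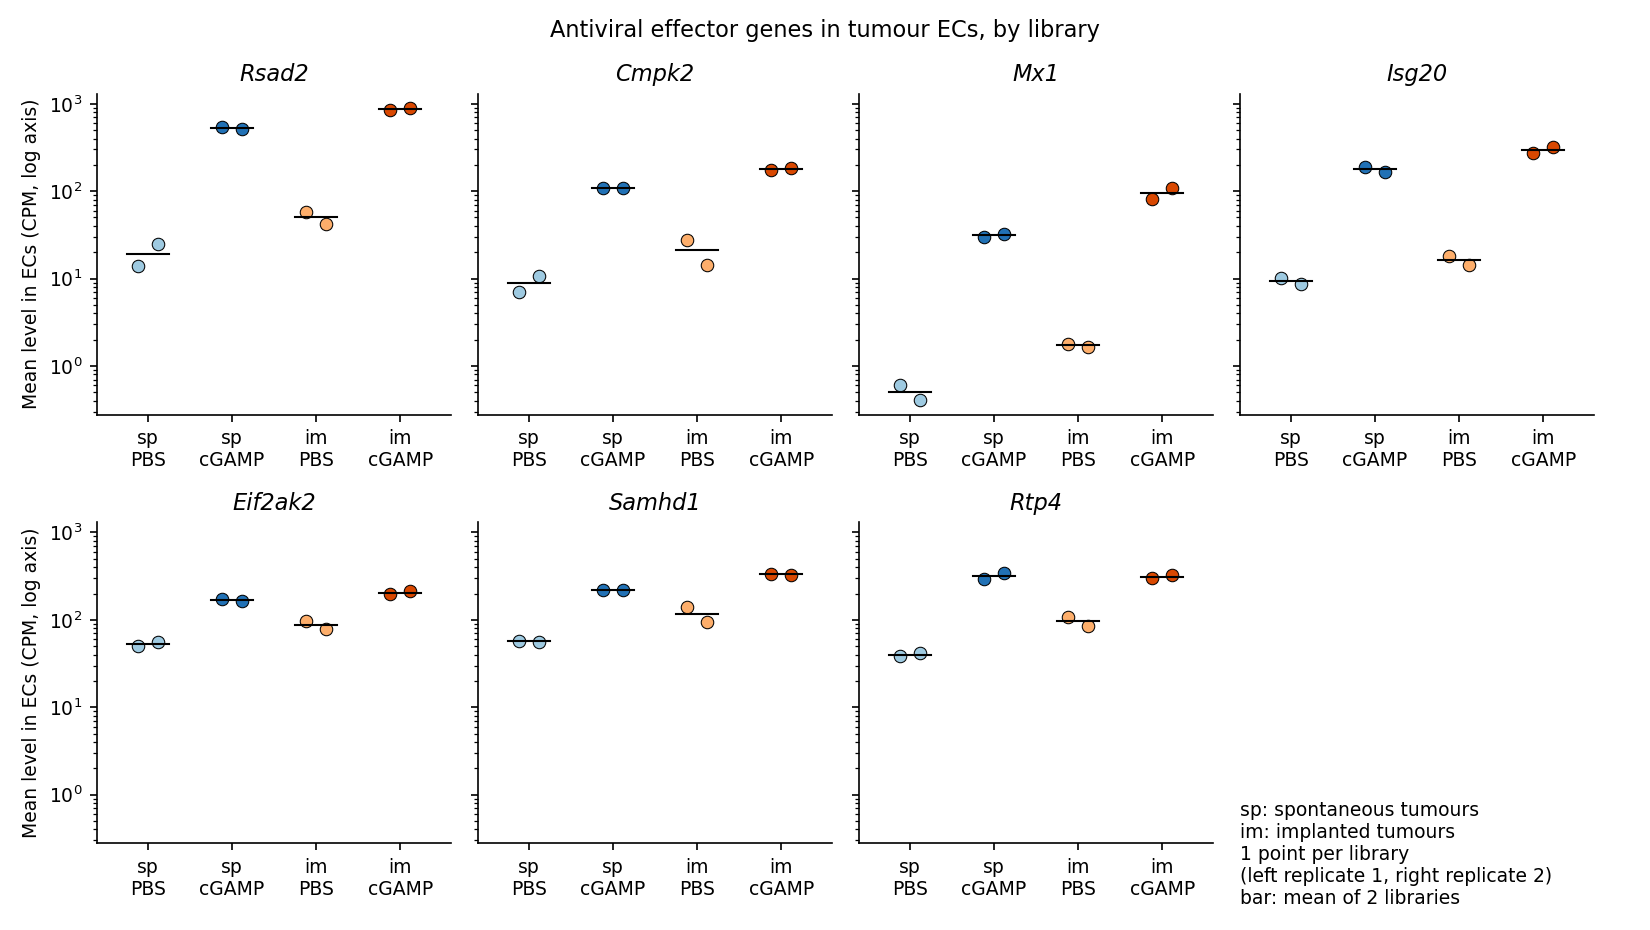
Level of each effector in ECs of each library, in mean CPM on a log axis. Each point is 1 library, bars are the means of 2 libraries, and colours mark the 4 groups (sp, spontaneous, and im, implanted). All cGAMP libraries lie above all PBS libraries of the same tumour model for each of the 7 genes. The implanted PBS libraries lie above the spontaneous PBS libraries, as was the case for 21.5% of all genes tested.

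Rsad2 had 13.9 and 24.8 CPM in the spontaneous PBS libraries and 540 and 512 CPM after cGAMP. In implanted tumours it had 57.9 and 42.4 CPM after PBS and 847 and 892 CPM after cGAMP. The mean level rose 27.2-fold in spontaneous and 17.3-fold in implanted tumours, and its libraries with cGAMP differed among themselves by far less than from those with PBS. On the log2 scale the change was 4.75 ± 0.22 (SE, limma, adjusted p = 1.09e-06) and 4.11 ± 0.22 (adjusted p = 6.37e-06), which ranked 11 and 18 among the 10424 genes.

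Cmpk2, the neighbour of Rsad2, rose as well. It had 7.09 and 10.7 CPM against 108 and 108 CPM in spontaneous tumours, and 27.9 and 14.1 CPM against 173 and 186 CPM in implanted tumours. The implanted PBS libraries differed by about as much as their mean exceeded the spontaneous PBS mean, while neither came near the cGAMP libraries. Its log2 changes were 3.48 ± 0.26 (adjusted p = 2.52e-05) and 3.11 ± 0.26 (adjusted p = 6.10e-05).

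Mx1 was close to undetected without cGAMP. Its levels after PBS were 0.610 and 0.406 CPM in spontaneous tumours, from 6 and 4 UMIs, and 1.804 and 1.650 CPM in implanted tumours. After cGAMP they were 29.7 and 32.7 CPM in spontaneous and 82.3 and 107 CPM in implanted tumours, with 715 and 2217 UMIs in all. The implanted change of 5.12 ± 0.19 (adjusted p = 1.20e-06) ranked 4 among all genes tested, and that in spontaneous tumours was 4.42 ± 0.19 (adjusted p = 7.91e-07). At so few UMIs after PBS the size of both depends on the pseudocount of 1 CPM.

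Isg20 gave the most even response of the 7 across the models. It had 10.0 and 8.78 CPM against 190 and 167 CPM in spontaneous tumours, and 18.0 and 14.3 CPM against 273 and 321 CPM in implanted tumours. The log2 change was 4.11 ± 0.14 (adjusted p = 2.38e-07) in spontaneous and 4.12 ± 0.14 (adjusted p = 5.90e-07) in implanted tumours, a ratio of means of 19.0 and 18.4.

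Eif2ak2, Rtp4 and Samhd1 were readily measured without cGAMP, and their changes were smaller. Eif2ak2 had 50.6 and 56.0 CPM against 171 and 165 CPM in spontaneous tumours, and 96.2 and 78.7 CPM against 196 and 212 CPM in implanted tumours. Its rise of 3.15-fold and 2.34-fold was the smallest of the 7 in both models, with log2 changes of 1.64 ± 0.11 (adjusted p = 8.38e-06) and 1.22 ± 0.11 (adjusted p = 7.24e-05). Samhd1 had 57.1 and 55.9 CPM against 218 and 221 CPM in spontaneous tumours, and 139 and 93.2 CPM against 333 and 328 CPM in implanted tumours. For Samhd1 the log2 changes were 1.94 ± 0.15 (adjusted p = 2.69e-05) and 1.53 ± 0.15 (adjusted p = 0.000132). None of the PBS and cGAMP libraries of a model overlapped for these genes.

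Rtp4 stood apart, because its level after cGAMP was the same range in both models while its level after PBS was not. It had 38.2 and 41.8 CPM in spontaneous PBS libraries, 107 and 85.1 CPM in implanted PBS libraries, 296 and 347 CPM after cGAMP in spontaneous and 298 and 325 CPM after cGAMP in implanted tumours. The rise was 8.04-fold (log2 2.97 ± 0.12, adjusted p = 5.79e-07) in spontaneous and 3.24-fold (log2 1.69 ± 0.12, adjusted p = 2.73e-05) in implanted tumours. The pattern was not particular to Rtp4. Of 22 other interferon-stimulated genes, described below, 21 were called higher in implanted tumours after PBS and 5 after cGAMP, against 3.39% and 5.23% of all genes.

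The difference of the responses, implanted minus spontaneous, was called for Rtp4 only, at -1.28 ± 0.17 on the log2 scale (limma, adjusted p = 0.023), while 0.662% of all genes were called in either direction. For Rsad2 the difference was -0.64 ± 0.31 (adjusted p = 0.414), for Cmpk2 -0.37 ± 0.37 (adjusted p = 0.711), for Eif2ak2 -0.42 ± 0.15 (adjusted p = 0.289) and for Samhd1 -0.41 ± 0.21 (adjusted p = 0.444). Isg20 lay at 0.01 ± 0.19 (adjusted p = 0.987). Mx1 stood at 0.71 ± 0.27 (adjusted p = 0.311), and its sign depends on the pseudocount, since its ratios of means without one were 61.4 in spontaneous and 54.9 in implanted tumours. With a pseudocount of 5 CPM it was called (log2 1.16, adjusted p = 0.0445). The call for Rtp4 was lost without any of the 4 spontaneous libraries (adjusted p = 0.0625 to 0.154). It was also lost in ECs without 2 or more markers of another cell type (log2 -1.18, adjusted p = 0.0995). That restriction left out 70.4 to 87.5% of ECs in the spontaneous libraries and 43.7 to 61.9% in the implanted libraries.

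**Figure D2:**
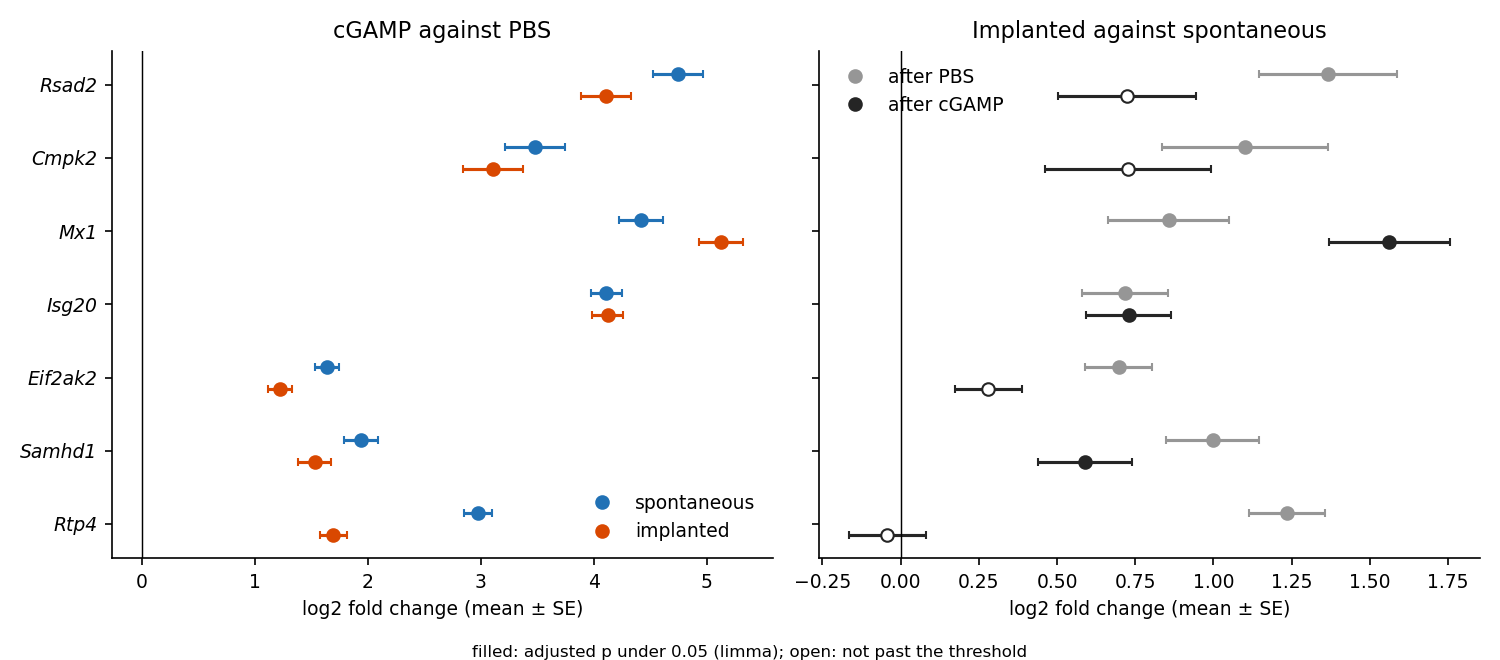
Log2 fold changes of the 7 effectors with their standard errors from the limma fit. The left panel gives the response to cGAMP in each model and the right panel implanted against spontaneous tumours after each treatment, filled points have an adjusted p under 0.05, and Rtp4 stands at 1.24 after PBS and at -0.04 after cGAMP in the right panel.

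After PBS, implanted tumours had higher levels of all 7 effectors than spontaneous tumours did, where 3.39% of all genes tested were called higher. These comparisons use the same 8 libraries as the responses above and are not independent of them. Ratios of means ranged from 1.64 for Eif2ak2 to 3.40 for Mx1, with 2.59 for Rsad2 and 2.40 for Rtp4. The ratio of Mx1 rests on 10 UMIs in spontaneous and 51 in implanted PBS libraries. Over 20 alternatives the log2 difference of Mx1 ran from 0.29 to 1.15. The log2 difference was 1.37 ± 0.22 for Rsad2 (adjusted p = 0.00659), 1.24 ± 0.12 for Rtp4 (adjusted p = 0.000593) and 0.998 ± 0.15 for Samhd1 (adjusted p = 0.00452). It was 1.10 ± 0.26 for Cmpk2 (adjusted p = 0.0366), 0.86 ± 0.19 for Mx1 (adjusted p = 0.0281), 0.72 ± 0.14 for Isg20 (adjusted p = 0.0147) and 0.70 ± 0.11 for Eif2ak2 (adjusted p = 0.00509). The 7 had a median of 0.998, and all genes -0.06. These calls depended on the libraries kept. With each library left out in turn, the log2 difference ran from 0.97 to 1.76 for Rsad2 and from 0.63 to 1.57 for Cmpk2. In ECs without 2 or more markers of another cell type only Cmpk2, Rtp4 and Samhd1 were called.

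After cGAMP, 3 of the 7 were called higher in implanted tumours, against 5.23% of all genes. They were Mx1 (log2 1.56 ± 0.19, adjusted p = 0.00206), Isg20 (0.73 ± 0.14, adjusted p = 0.0104) and Samhd1 (0.59 ± 0.15, adjusted p = 0.0316). Rsad2 and Cmpk2 had differences of 0.73 ± 0.22 (adjusted p = 0.0574) and 0.73 ± 0.26 (adjusted p = 0.0983) and did not pass, although their implanted libraries lay above their spontaneous ones, as those of 21.4% of all genes did. Eif2ak2 had 0.28 ± 0.11 (adjusted p = 0.113), and the libraries overlapped for Rtp4 at -0.04 ± 0.12 (adjusted p = 0.85). In ECs without 2 or more markers of another cell type, limma called only Isg20 (adjusted p = 0.0348) and Cmpk2 (adjusted p = 0.0411). There Mx1 (log2 1.47, adjusted p = 0.0617) and Samhd1 (log2 0.56, adjusted p = 0.180) did not pass. Without implanted cGAMP replicate 1, the shallowest library, 2 of the 7 were called (Mx1 and Isg20), and without spontaneous cGAMP replicate 2 only Mx1.

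Other cells' markers moved with these groups in ECs. Summed mural markers were 85.6 to 448 CPM in spontaneous PBS, 581 to 736 CPM in spontaneous cGAMP, 76.6 to 106 CPM in implanted PBS and 123 to 222 CPM in implanted cGAMP libraries. Summed immune markers were 41.0 to 55.0, 61.4 to 66.4, 87.2 to 98.7 and 83.8 to 296 CPM in the same order, with the leukocyte gene Ptprc in 0.17 to 5.63% of ECs. Cd14 was the largest part of the immune sum in every library, so that the sum mostly follows this gene. By group it had 43.6 and 33.7, 40.3 and 40.5, 72.7 and 91.7, and 134 and 49.1 CPM. Ptprc had 1.24 and 0.160, 2.99 and 3.55, 2.30 and 0.964, and 24.7 and 10.2 CPM. Epithelial markers summed to 579 to 716, 599 to 710, 276 to 380 and 158 to 1115 CPM, and fibroblast markers to 13.1 to 64.6, 97.8 to 98.4, 13.3 to 18.2 and 59.1 to 85.7 CPM. Every marker of the 4 lists (7, 7, 8 and 5 genes for mural, epithelial, immune and fibroblast cells) was found in ECs and none was at 0. Their part in the model comparisons was not tested beyond the ECs without 2 or more such markers of a type. In ECs that carried fewer than 2 markers of any of these types all 7 effectors were still called higher after cGAMP in both models, at log2 1.62 to 4.39 in spontaneous and 1.40 to 4.74 in implanted tumours. Likewise all 7 were called in both models without implanted cGAMP replicate 1.

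A panel of 22 other interferon-stimulated genes, listed with earlier results known, moved in the same direction. After cGAMP, 22 of 22 were called higher in spontaneous tumours (median log2 3.69) and 22 of 22 in implanted tumours (median 2.43). Of all genes 5.09% and 8.6% were. Among them, the transcription factor Irf7 changed by 5.85 and 4.12, the ubiquitin-like Isg15 by 4.32 and 3.20 and the RNA sensor gene Ddx58 by 1.44 and 1.20. The difference of the responses was called lower for 6 of 22 (Ifit1, Ifit3, Irf7, Zbp1, Xaf1 and Ifitm3), against 0.46% of all genes. Zbp1, a sensor of left-handed nucleic acids, stood at -2.68 ± 0.33. After PBS 21 of 22 of the panel were called higher in implanted tumours (median 1.27), while after cGAMP 5 of 22 were (median 0.29). The shares over all genes were 3.39% and 5.23%. The median difference of the responses was -0.93 in this panel and -0.41 in the 7 effectors.

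Genes of the pathway upstream moved less as a group. The 11 tested had a median log2 change after cGAMP of 0.28 in spontaneous and 0.31 in implanted tumours. Stat2 nevertheless changed by more than Eif2ak2 and Samhd1 did in both models. Of all genes, 5.09% and 8.6% were called higher after cGAMP in spontaneous and implanted tumours. Among sensing and signalling genes, Stat2 (2.26) and Irf9 (1.72), which encode parts of the ISRE-binding complex, were called higher after cGAMP in spontaneous tumours. In implanted tumours Stat2 (1.62), Irf9 (0.82), Tbk1 (0.67) and Tmem173 (0.41), which encodes STING, were called higher, and the receptor gene Ifnar1 lower (-0.53). Irf9 had a called difference between the responses (-0.91, adjusted p = 0.0241). After PBS Stat2 (0.87) and Irf9 (0.67) were called higher in implanted tumours. After cGAMP Tmem173 was higher (0.49) and Ifnar1 lower (-0.53) in implanted tumours. Of 8 interferon genes none reached the level needed for a test: Ifng had a row in all 8 libraries with at most 2.52 CPM, Ifnb1 in 2 libraries with at most 1.49 CPM, and the other 6 had no row.

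Relatives of the effectors did not move with them as a group. Of 12 tested paralogues and related enzymes, 1 was called higher after cGAMP in each model, Rtp3, a relative of Rtp4, at 1.101 ± 0.17 and 0.97 ± 0.17. The dynamin gene Dnm3 (-0.57 and -0.50) and Hddc3 (-0.56 and -0.88) were called lower. Cmpk1 (0.07 and 0.10), Dnm2 (0.13 and 0.14), Dnm1l, Eif2ak1, Eif2ak3, Eif2ak4, Isg20l2, Aen and Hddc2 did not pass in either model. The 12 had a median of -0.03 in spontaneous and -0.17 in implanted tumours, near that of all genes.

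Cmpk2 and Samhd1 act on nucleotide pools, and 18 genes of deoxynucleotide and pyrimidine supply were read beside them. After cGAMP 6 of 18 were called lower in each model, where 7.59% of all genes in spontaneous and 16.4% in implanted tumours were called lower, and none or 1 higher. The ribonucleotide reductase subunit Rrm2 changed by -2.39 ± 0.34 and -2.75 ± 0.34, the thymidine kinase Tk1 by -1.69 ± 0.40 and -3.29 ± 0.40, and the dUTPase Dut by -0.85 ± 0.17 and -1.29 ± 0.17. Dck, the deoxycytidine kinase of the salvage pathway, was called higher in implanted tumours (0.89 ± 0.16) and had 0.47 ± 0.16 (adjusted p = 0.0809) in spontaneous tumours. Summed proliferation markers were 106 to 188 CPM after PBS and 33.6 to 49.0 CPM after cGAMP in spontaneous tumours, and 295 to 389 CPM and 27.1 to 53.1 CPM in implanted tumours, and their part in these values was not tested. Ctps, which makes CTP, was called higher in implanted tumours after PBS (0.87) and after cGAMP (0.95), without a called response to cGAMP.

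The genes whose patterns came closest to each effector were found by the root mean square difference of centred log2 levels over the 8 libraries, and are a description. For Rsad2 they were Phf11b (0.248), Ifit1 (0.249) and Oasl1 (0.292), and for Isg20 Oas3 (0.278), Usp18 (0.354) and Gm5431 (0.400). Cmpk2 had Ifi211 (0.174), Slfn8 (0.182) and Bst2 (0.200), and Mx1 had Trim30d (0.205), Phf11b (0.418) and Ifit1bl1 (0.427). The genes closest to Eif2ak2 were Tap2 (0.0964), H2-D1 (0.112) and Samd9l (0.113), and those closest to Samhd1 were Tapbp (0.124), Mlkl (0.132) and H2-K1 (0.140), which include 2 MHC class I genes and 2 genes of peptide loading. Rtp4 had Xaf1 (0.119), H2-T23 (0.191) and Herc6 (0.194). Among the effectors the closest pair was Eif2ak2 and Samhd1 (0.233), ahead of Rsad2 and Isg20 (0.371), the neighbours Rsad2 and Cmpk2 lay at 0.591, and Mx1 and Eif2ak2 were farthest apart (1.74).

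In single ECs the effectors were counted after each EC had been thinned to 1000 UMIs, which left out 173 ECs of implanted cGAMP replicate 1 and 4 to 23 of the other libraries. An EC then held a UMI for 0.181 ± 0.029 of the 7 genes in spontaneous PBS libraries (mean ± SD, n = 2) and for 1.14 ± 0.02 after cGAMP. In implanted tumours it held 0.328 ± 0.051 after PBS and 1.54 ± 0.06 after cGAMP. The share of ECs with none of the 7 was 83.8 ± 2.02% and 32.3 ± 0.23% in spontaneous tumours, and 73.6 ± 3.09% and 22.9 ± 0.95% in implanted tumours. ECs with 3 or more of the genes made up 0.328% after PBS and 10.8% after cGAMP in spontaneous tumours, and 0.836% and 21.0% in implanted tumours. After cGAMP, ECs with 5 or more made up 0.595% in spontaneous and 2.21% in implanted tumours. Since 2 libraries against 2 cannot pass an exact permutation test, these are values without a test. Epithelial RNA was present in ECs at the same time (Epcam in 9.93 to 21.9% of ECs), so that a UMI of an effector in an EC need not come from that cell.

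**Figure D3:**
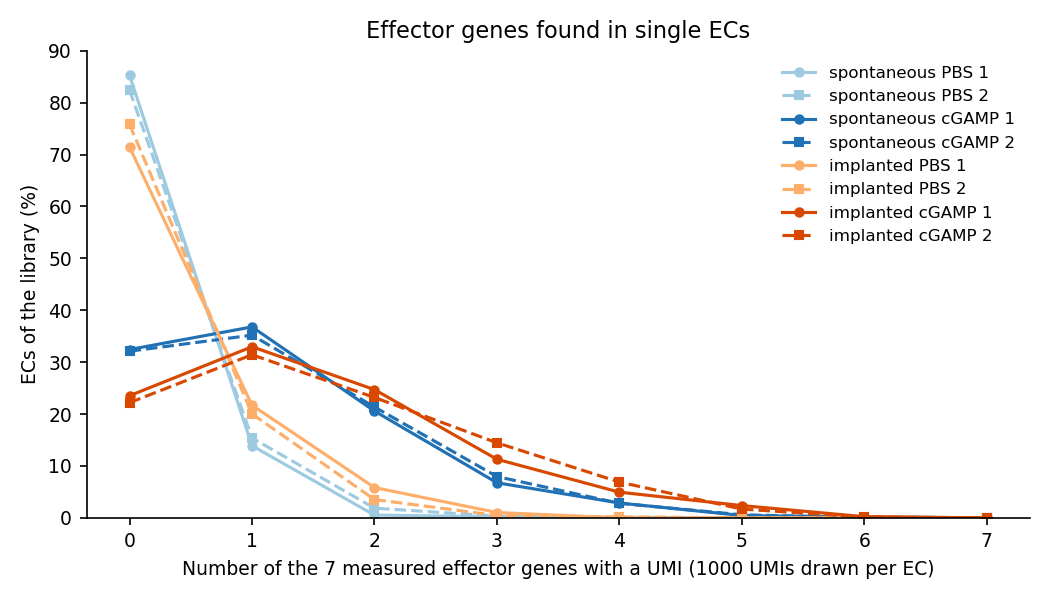
Share of ECs, in percent, that held a UMI for a given number of the 7 effectors after thinning to 1000 UMIs per EC; each line is 1 library, replicate 1 solid and replicate 2 dashed. ECs with none make up over 70% in the PBS libraries and under 33% in the cGAMP libraries.

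After cGAMP Rsad2 was found in a larger share of ECs and at more UMIs in those that held it. Its thinned share was 1.99% and 28.5% in spontaneous tumours after PBS and cGAMP, and 3.11% and 38.0% in implanted tumours. ECs with a thinned Rsad2 UMI held on average 1.104, 1.99, 1.46 and 2.36 of them in these 4 groups, while no other effector exceeded 1.26 after cGAMP. The tenth of ECs with the most Rsad2 held 63.7% and 59.6% of its thinned UMIs after cGAMP in spontaneous and implanted tumours. Without thinning, Rsad2 was found in 71.1% and 67.6% of ECs after cGAMP. That order is opposite to the order of the thinned shares, and implanted cGAMP replicate 1 was the shallowest library.

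Rsad2 and Cmpk2 were found in the same thinned EC more often than the product of their shares. After cGAMP 56 ECs of spontaneous and 170 of implanted tumours held both, 1.70 and 1.85 times the number given by the product. Of the 170, 116 came from the shallow implanted cGAMP replicate 1 (1.87 times) and 54 from replicate 2 (1.79 times), while the spontaneous libraries stood at 1.29 and 1.995 times. In spontaneous tumours Cmpk2 and Mx1 (3.13 times, on 10 ECs) and Rsad2 and Mx1 (1.85 times) stood higher than this pair. In implanted tumours both stood lower than it, at 1.75 times (on 35 ECs) and 1.49 times. Cmpk2 and Isg20 stood at 1.62 and 1.60 times, below it in both models. The pair Rsad2 and Isg20 was found together in 85 and 228 ECs (1.51 and 1.41 times), and Rsad2 and Rtp4 stood at 1.09 and 1.12 times. Eif2ak2 and Rtp4 had 0.98 and 0.90 times. These ratios pool ECs of different vessel classes and are given as a description, with no test.

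ECs were then placed in vessel classes by markers that do not include the effectors: an EC joined the class of which it held the most markers, at least 2. The classes held 1486 arterial (for instance Gja5 and Bmx), 2033 venous and stalk-like (Ackr1, Selp), 593 AQP7 capillary (Aqp7, Cd36), 831 tip-like (Apln, Esm1), 236 proliferating (Mki67, Top2a) and 349 lymphatic ECs (Prox1, Lyve1), and 1631 ECs joined none. Between 29 and 234 ECs of a library joined their class on exactly 2 markers. Deeper cells show more markers, and median UMIs per library ranged from 3426.5 to 9674 in AQP7 capillary ECs, from 5095 to 19779 in tip-like ECs and from 4813 to 19012.5 in venous and stalk-like ECs. Levels in a class were set against all other ECs of the same library, as log2(CPM + 5), and averaged over the 4 groups.

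Tip-like ECs, the sprouting cells at the front of new vessels, had the highest Rsad2 on average. Its level in them was 32.2 and 8.27 CPM in spontaneous PBS, 974 and 646 CPM in spontaneous cGAMP, 90.5 and 95.5 CPM in implanted PBS and 2213 and 1702 CPM in implanted cGAMP libraries. In venous and stalk-like ECs of the same libraries it was 2.48 and 13.0, 254 and 336, 10.4 and 6.54, and 580 and 602 CPM. Tip-like exceeded venous and stalk-like ECs in 7 of 8 libraries, with ratios of 3.84, 1.92, 3.81 and 2.83 in the 4 cGAMP libraries. Cmpk2 had ratios of 3.74, 1.22, 4.08 and 3.21 in those libraries, and Isg20 had 1.94, 1.83, 1.89 and 2.65.

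**Figure D4:**
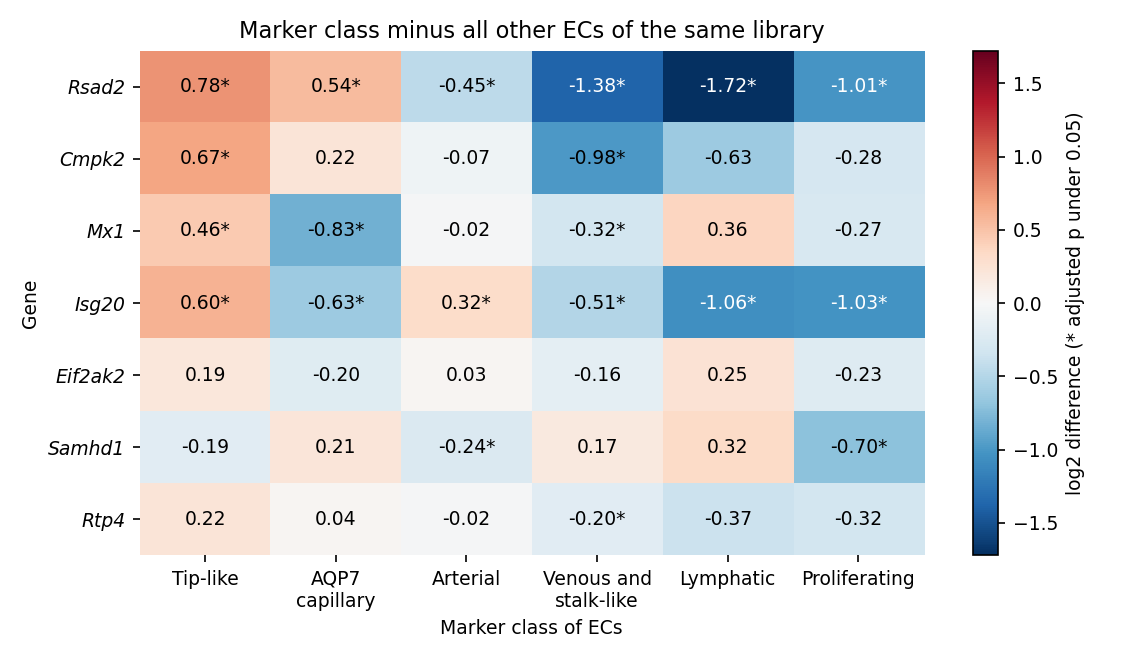
Map of the log2 difference of each effector (rows) between a vessel class (columns) and all other ECs of the same library, averaged over groups, with the value in each field, its colour on the scale and a star where the adjusted p is under 0.05. Rsad2 spreads from -1.72 in lymphatic to 0.78 in tip-like ECs, and Eif2ak2 stays near 0 in all classes.

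Against all other ECs, 4 of 7 effectors were called higher in tip-like ECs, where 8.6% of all genes were. They were Rsad2 (0.78 ± 0.23, limma, adjusted p = 0.0342), Cmpk2 (0.67 ± 0.12, adjusted p = 0.00294), Isg20 (0.60 ± 0.08, adjusted p = 0.000772) and Mx1 (0.46 ± 0.12, adjusted p = 0.0187), each higher in 6 or 7 of 8 libraries. Venous and stalk-like ECs had 5 of 7 called lower, where 20.8% of all genes were called lower. Rsad2 was at -1.38 ± 0.11 (adjusted p = 3.01e-05), Cmpk2 at -0.98 ± 0.12 (adjusted p = 0.0003) and Isg20 at -0.51 ± 0.07 (adjusted p = 0.000919), each lower in 8 of 8 libraries. Mx1 (-0.32 ± 0.08, adjusted p = 0.0209) and Rtp4 (-0.20 ± 0.06, adjusted p = 0.0351) were called lower as well. Cmpk2 and Isg20 kept both calls, and Rsad2 that in venous and stalk-like ECs, without each library in turn. The call for Rsad2 in tip-like ECs was lost without any of the cGAMP or implanted libraries (adjusted p = 0.0568 to 0.105) and with a pseudocount of 1 CPM (adjusted p = 0.0988), the call for Mx1 in tip-like ECs without any replicate 1 library, and those for Mx1 and Rtp4 in venous and stalk-like ECs without any of 5 and 6 libraries.

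Arterial ECs, with 18% of genes called higher and 19.8% lower, had Isg20 higher (0.32 ± 0.08, adjusted p = 0.0176) and Rsad2 (-0.45 ± 0.08, adjusted p = 0.00278) and Samhd1 (-0.24 ± 0.07, adjusted p = 0.0242) lower. These are averages over libraries: Isg20 was higher in arterial ECs in 5 of 8 libraries, and Rsad2 was lower in 6 of 8 and higher in both spontaneous cGAMP libraries (670 and 548 CPM against 509 and 505 CPM in other ECs). AQP7 capillary ECs, with 1.58% higher and 6.68% lower, had Rsad2 higher (0.54 ± 0.11, adjusted p = 0.0199) and Mx1 (-0.83 ± 0.19, adjusted p = 0.0257) and Isg20 (-0.63 ± 0.13, adjusted p = 0.0226) lower. The average for Rsad2 in AQP7 capillary ECs joined opposite signs. Its level there was 40.7 and 75.4 CPM in spontaneous PBS and 115 and 87.5 CPM in implanted PBS libraries, against 10.8, 17.1, 53.6 and 39.1 CPM in other ECs. After cGAMP it was 529 and 436 CPM in spontaneous and 794 and 526 CPM in implanted tumours, against 541, 518, 851 and 923 CPM. Rsad2 was thus higher in AQP7 capillary ECs in all 4 PBS libraries and lower in all 4 cGAMP libraries. None of the 3 calls in AQP7 capillary ECs remained without spontaneous PBS replicate 2, either spontaneous cGAMP library or either implanted PBS library, and the arterial call for Samhd1 was lost without any of 5 libraries.

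Lymphatic ECs had Rsad2 (-1.72 ± 0.21, adjusted p = 0.00036) and Isg20 (-1.06 ± 0.19, adjusted p = 0.00341) lower, where 14.7% of all genes were called lower. No Rsad2 UMI was found in them in 3 of the 4 PBS libraries, and 3 UMIs would be 12.4 and 8.79 CPM in the spontaneous and 5.68 CPM in the implanted library concerned, so that the fitted size depends on the pseudocount. In implanted PBS replicate 2 they had 6.04 CPM. After cGAMP lymphatic ECs had 477 and 270 CPM of Rsad2 in spontaneous and 464 and 369 CPM in implanted tumours, on 18 to 145 ECs per library. Proliferating ECs were numerous enough in 3 libraries only, all of them with PBS (spontaneous replicate 1 and both implanted replicates, 42 to 98 ECs). There Rsad2 (-1.01 ± 0.23, adjusted p = 0.0259), Isg20 (-1.03 ± 0.23, adjusted p = 0.0235) and Samhd1 (-0.70 ± 0.19, adjusted p = 0.0389) were called lower, where 12.8% of all genes were. Eif2ak2 passed in no class, and its class averages spanned 0.48 on the log2 scale against 2.50 for Rsad2.

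**Figure D5:**
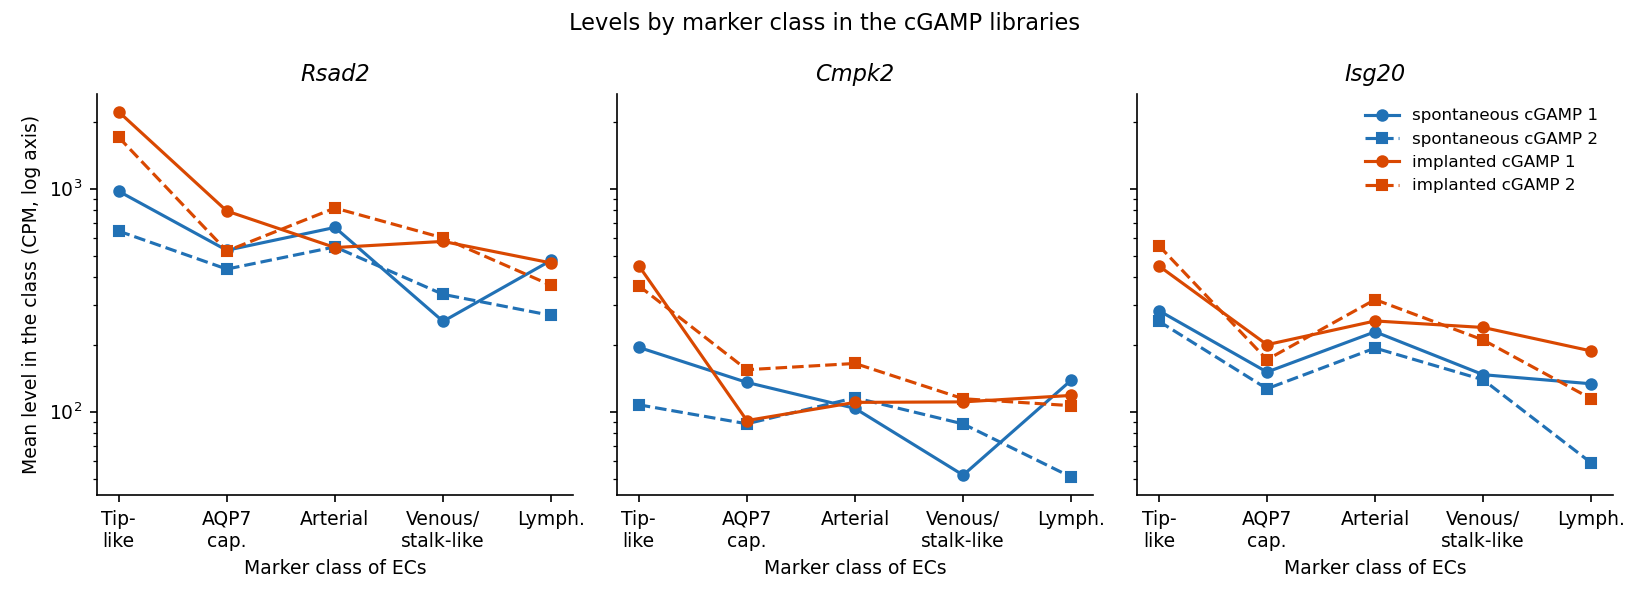
Levels of Rsad2, Cmpk2 and Isg20 in 5 vessel classes of the 4 cGAMP libraries, in mean CPM on a log axis; each line joins the points of 1 library, replicate 1 solid and replicate 2 dashed. In implanted tumours tip-like ECs lie highest for Rsad2, at 2213 and 1702 CPM, and venous and stalk-like ECs 580 and 602 CPM.

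Whether the response to cGAMP itself differed by vessel class was tested for 7 genes in 5 classes, 35 tests. Limma called 0 of them, with 13 at an unadjusted p under 0.05, where 1.04% of all genes were called in venous and stalk-like ECs, 0.00959% in arterial ECs and 0% in the other 3 classes. The lowest adjusted p was that of Rsad2 in venous and stalk-like ECs, 0.98 ± 0.21 (adjusted p = 0.0716), which passed without spontaneous PBS replicate 2 (1.17, adjusted p = 0.0397) and with at least 3 markers per class (1.04, adjusted p = 0.0358). Rsad2 in AQP7 capillary ECs had the largest ratio of change to error, -1.67 ± 0.23 (adjusted p = 0.133), and in lymphatic ECs it had 1.76 ± 0.41 (adjusted p = 0.26). In AQP7 capillary ECs Mx1 (-1.34) and Cmpk2 (-1.01) also had negative values, both at an adjusted p of 0.429.

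Cells without a Pecam1 UMI were read separately, and whether they lay outside the endothelium was not tested. Of them, 390 cells were classed as epithelial and 111 as mural, by the list of which a cell held the most markers, at least 2. The epithelial list includes Csn3 and Wfdc18, which also gave a UMI in 27.6 to 91.6% and 46.4 to 74.8% of ECs. Rsad2 in the epithelial cells was 4.20 CPM in spontaneous PBS (70 cells, 1 UMI), 261 CPM in spontaneous cGAMP (60 cells, 28 UMIs), 45.3 CPM in implanted PBS (76 cells, 7 UMIs) and 714 CPM in implanted cGAMP libraries (184 cells, 202 UMIs). Rtp4 in the same cells was 42.7, 388, 97.3 and 302 CPM, and Isg20 was 7.53, 157, 3.71 and 255 CPM. Mean levels in ECs after cGAMP, spontaneous then implanted, were 526 and 870 CPM (Rsad2), 321 and 311 CPM (Rtp4) and 179 and 297 CPM (Isg20). Mural cells had 8.67 CPM of Rsad2 in spontaneous PBS (29 cells, 2 UMIs) and 230 CPM in spontaneous cGAMP (61 cells, 182 UMIs). In implanted cGAMP replicate 1 they had 459 CPM (20 cells, 10 UMIs), while replicate 2 held no mural cell. Of the 184 epithelial cells after cGAMP in implanted tumours, 177 also came from replicate 1. Median UMIs per library were 1079 to 1794.5 in the epithelial cells. In mural cells they were 8034 and 10780.5 in the spontaneous cGAMP libraries and 1449.5 in implanted cGAMP replicate 1. The epithelial and mural values pool the libraries of a group, and the cells passed an endothelial sort, so no test was made. RNA carried over from ECs was not measured in them.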

How the data were processed

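Single-cell libraries (10x Chromium, 3' ends) of sorted tumour ECs were sequenced by the authors, mapped with Cell Ranger 3.0.0 to mm10 and processed with Seurat 3.1.1, per the labels and methods. The deposited values are the natural log of 1 plus UMIs scaled to 10000 per cell. The authors left out cells under 500 genes or above 10% mitochondrial UMIs and genes in under 3 cells, and how the deposited cells were chosen beyond that is not stated in the sources used here. No doublet caller was run.

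UMI counts were recovered from the deposited log values (100% whole within 0.01). Per library, CPM were averaged over ECs and tested as log2(CPM + 1) with limma 3.58.1 (R 4.3.3, two-sided, trended eBayes, Benjamini-Hochberg) for genes that reached 5 CPM in 2 or more libraries, with 4 group means and 4 residual degrees of freedom. Vessel class tests used within-library differences of log2(CPM + 5) with at least 10 ECs per class and library. Likeness to a member was the root mean square difference of log2 levels over the libraries after centring each gene. Summaries used Python 3.11.15. Named genes were all members, members of 5 lists, and the 3 genes most like each member. Members, lists, markers and tests were chosen with earlier results of these data known, and none is independent evidence. A gene of the signalling list is not reported here. Fits were tested on simulated data. No columns were left unused. Intervals of counting error do not cover differences between mice. Alternatives changed normalization, pseudocount, filter, cells, class rules and libraries.

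Replicate numbers appear only in sample titles. Deviations of same-numbered libraries correlated at -0.216 to 0.125, so the numbers were not treated as pairs.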

Additional observations from a re-analysis of the deposited data

Results flagged for a closer look

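The response of Rtp4 to cGAMP differed between the tumour models by the test of the difference itself: -1.28 on the log2 scale, implanted minus spontaneous (limma, adjusted p = 0.023). Such a difference was not particular to Rtp4, since 6 of 22 other interferon-stimulated genes also had a called lower one, against 0.46% of all genes. Levels of Rtp4 were 38.2 and 41.8 CPM after PBS and 296 and 347 CPM after cGAMP in spontaneous tumours, and 107 and 85.1 CPM after PBS and 298 and 325 CPM after cGAMP in implanted tumours, so that the models differed after PBS and overlapped after cGAMP. Among 20 alternatives the difference was called in 14, with adjusted p from 0.00378 to 0.154 and sizes from -1.44 to -1.11.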

How the results depend on the processing

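All 7 effectors stayed called higher after cGAMP in both models under each of 21 alternatives. For the other comparisons the numbers depended on the setting. With median-of-ratios scaling the share of calls that were higher went from 40.2% to 66.4% in spontaneous and from 34.3% to 51.5% in implanted responses, from 43.3% to 67.9% after PBS and from 38.0% to 58.6% after cGAMP, as the median of all genes moved to near 0, and the Rtp4 difference after cGAMP became 0.0389. Without the filter on low levels, called genes were 812 (1322 as reported) for the spontaneous response, 0 (69) for the difference, 327 (816) after PBS and 784 (1434) after cGAMP, with 0 members for the difference and 3 after PBS. In ECs without 2 or more markers of another cell type, called genes were 407 and 682 (2609) for the responses and 18 for the difference. After PBS they were 211 and after cGAMP 242, with 0 members called for the difference, 3 after PBS and only Cmpk2 and Isg20 after cGAMP. Summing UMIs over ECs gave 2839, 112 and 1317 genes for the spontaneous response, the difference and PBS, 5 members (3) after cGAMP, an Isg20 difference of -0.31 (0.01) and an Rtp4 difference after cGAMP of 0.0256 (-0.04). All deposited cells gave 43 genes for the difference. The Isg20 difference was -0.00841 there, -0.0144 with a pseudocount of 0.5, -0.0712 in ECs with at least 2000 UMIs and -0.0235 without proliferating ECs. Members called were 2 for the difference with a pseudocount of 5, and 5 after cGAMP with at least 2000 UMIs or in fits of 4 libraries.

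Leaving out each library gave 448 to 1808 genes for the spontaneous response (lowest without spontaneous cGAMP replicate 1), 1265 to 2495 for the implanted (lowest without implanted PBS replicate 2), 2 to 171 genes and 0 to 2 members for the difference, 212 to 1234 genes and 3 to 7 members after PBS (3 without implanted PBS replicate 1, 4 without spontaneous PBS replicate 2), and 156 to 1447 genes and 1 to 4 members after cGAMP. The Isg20 difference ran from -0.15 to 0.17, the Rtp4 difference after cGAMP from -0.16 to 0.0707 and the Cmpk2 difference from -0.84 to 0.0928. Members called ran from 3 to 5 in venous, 0 to 3 in AQP7, 2 to 4 in tip-like and 2 to 4 in lymphatic ECs, and 0 to 1 for the venous response, while proliferating ECs could not be refitted. With a pseudocount of 1, members called were 1 in AQP7 (3), 2 in tip-like (4) and 1 in proliferating ECs (3), without a filter 2 in tip-like and 0 in proliferating ECs, and with at least 3 markers per class 1 for the venous response (0). Members per EC at 2000 UMIs were 0.334, 1.995, 0.618 and 2.49 and without thinning 1.24, 4.55, 2.08 and 4.26 (spontaneous tumours after PBS and cGAMP, then implanted tumours after PBS and cGAMP). The causes were not tested.

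With the replicate block, 1230, 2524, 58, 741 and 1362 genes and 7, 7, 1, 6 and 3 members were called in the 5 comparisons, Cmpk2 after PBS was lost (adjusted p = 0.0507), and 4 members were called in venous and 3 in lymphatic ECs. Crossed numbers, a choice made after seeing the data like the restriction to mostly endothelial ECs and to other vessel classes, gave 1221 genes for the spontaneous response and 728 after PBS.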
